A study of Mus musculus with 19 samples.

Results

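A group of 130 cells with the highest share of transcripts from Reg3b, Reg3g and Fabp2 was taken from a single-cell library of regenerating mouse colon epithelium at day 8. The 130 cells were 6.44% of 2020 non-secretory cells (95% exact binomial interval 5.40 to 7.60%) and 4.00% of the 3253 cells that passed the limits on quality. Cells had at least the rule's minimum number of unique molecular identifiers (UMIs, which count captured RNA molecules; the shallowest of the 2020 had 6796), at least 500 genes and at most 20% mitochondrial UMIs. Cells with 1% or more of their UMIs in 8 secretory genes were set aside, and so were the 100 cells with the highest share of Car4, Clca4b, Aqp8, Slc26a3 and Tgm3, here called the mature cells. The other 1790 non-secretory cells are called the rest. The values that chose the cells come from the same library as every level below, so all comparisons between these classes are descriptions with no test, and 1 library gives no replicate error. The intervals on summed UMIs and shares of cells cover counting error only.

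The library held cells from adult mice of mixed C57BL/6 and 129/Sv background that carried an mCherry reporter at Ascl2 and the Lgr5 Dtr-Egfp allele. The Dtr allele puts the diphtheria toxin receptor under Lgr5, and the mice had received 4 injections of diphtheria toxin (50 ug/kg), 1 every other day, to remove Lgr5 cells. Sorted cells were positive for mCherry and negative for GFP. Bulk RNA libraries that played no part in the choice of cells came from wild-type stem cells with the same reporter and allele (3 libraries), from regenerating cells of the same genotype after the toxin (2 libraries) and from Ascl2 knockout stem cells (2 libraries). The knockout mice were Ascl2 Fl/Fl; Lgr5 EGFP-Cre and received tamoxifen (2 mg on days 1 and 2 and 1 mg on day 3), so deletion was confined by design to cells that express the Lgr5 Cre. Genotype, reporter allele and sort therefore differ together between knockout and wild type. Embryonic hindgut epithelium of wild-type CD1 mice, sorted on Epcam, gave 2 libraries at each of E11, E12, E14 and E16. The labels do not give the age or the number of adult mice, nor whether the adult libraries came from separate animals, so p-values for them measure the spread between libraries only.

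Reg3b and Reg3g are secreted C-type lectins that bind bacteria, and gut epithelium is known to raise them through STAT3 signalling after injury or contact with microbes. Fabp2 is the intestinal fatty acid binding protein of absorptive cells. In the colon, cells that leave the crypt base divide, stop dividing and then take on Krt20, carbonic anhydrases and ion exchangers as surface colonocytes.

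Reg3b and Reg3g lie close together on chromosome 6. Their levels moved together from cell to cell (Spearman rho 0.87 over 130 cells, 0.85 over the 100 mature cells). These are descriptions, since the cells share a library and the 130 were ranked on a sum that holds both genes. In the rest, which the cut kept low for both, 97 of 1790 cells had a Reg3b UMI, 329 a Reg3g UMI and 30 had both. The upstream sequences of both genes are shown because of this position and the correlations. They are the 250 bases before each RefSeq start site (GRCm38.p6), 5′ to 3′ in the direction of the gene. Reg3b starts on the plus strand and its upstream window is chr6:78370635-78370884, before a gene body at chr6:78370885-78373466. Reg3g is on the minus strand, with the window chr6:78468875-78469124 before a gene body at chr6:78466269-78468874, 92802 bases from Reg3b. Capitals mark TTCNNNGAA (a STAT motif) and TATAAA, known as the TATA box, on either strand.
Reg3b: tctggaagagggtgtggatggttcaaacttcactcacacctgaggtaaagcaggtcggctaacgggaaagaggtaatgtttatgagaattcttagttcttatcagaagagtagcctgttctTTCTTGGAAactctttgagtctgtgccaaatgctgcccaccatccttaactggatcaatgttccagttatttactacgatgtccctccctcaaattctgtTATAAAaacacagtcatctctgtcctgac
Reg3g: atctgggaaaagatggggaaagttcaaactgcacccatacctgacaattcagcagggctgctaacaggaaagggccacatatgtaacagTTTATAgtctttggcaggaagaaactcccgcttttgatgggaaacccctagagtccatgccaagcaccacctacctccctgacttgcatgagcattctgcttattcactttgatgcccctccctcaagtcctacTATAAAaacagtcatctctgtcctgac
In a global alignment 177 of 243 aligned bases were identical (72.8%), and the longest identical run was the last 20 bases before the start. A TATAAA began at -29 in Reg3b and at -27 in Reg3g, and the Reg3g window held a further one on the opposite strand at -161. TATAAA occurred in 12.4% of 32851 RefSeq promoter windows of the same length. TTCNNNGAA occurred in 7.02% of them and began at -129 in Reg3b, with no match in Reg3g. An HNF4 motif, CAAAGTCCA (0.384% of windows), a CDX motif, TTTATGG (2.43%), and a motif of the GATA factors, spelled AGATAA (9.99%), were searched on both strands. None had a match in either window. A match is a description of the letters, and binding was not measured at these windows here.

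The 3 genes of the rule were very unevenly spread. Their summed level per cell was 3.76 UMIs per 10000 at the lowest, 14.8 at the median and 627 at the highest. No Reg3b UMI was found in 64 of the 130 cells, no Reg3g UMI in 50 and no Fabp2 UMI in 12. The 10 highest cells held 66.7% of all Reg3b UMIs, 59.0% of Reg3g UMIs and 33.6% of Fabp2 UMIs. The highest cell alone, with 93373 UMIs in all, held 4668 Reg3b UMIs (18.3% of the total), 1000 of Reg3g, 183 of Fabp2, 73 of the differentiation keratin Krt20 and 0 of the proliferation marker Mki67. The next highest, with 83413 UMIs, had 3741 of Reg3b and 883 of Reg3g, but 0 of Krt20 and 32 of Mki67. The 2 cells with the most Reg3b thus differed in whether they carried a marker of division or of differentiation.

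Summed over all 130 cells, Reg3b was at 64.3 UMIs per 10000 (63.5 to 65.1), Reg3g at 17.0 and Fabp2 at 7.34. The rest had 0.0285, 0.141 and 0.249, and the mature cells 27.8, 12.4 and 3.31. Barcodes of 10 to 100 UMIs, which stand for RNA outside cells, held Reg3b at 3.36, Reg3g at 1.11 and Fabp2 at 1.04, all above the rest. The cut fell in a continuous range. The last cell inside had 12 Fabp2 UMIs among 31879 (3.76 per 10000), and the first outside had 1 Reg3g and 8 Fabp2 UMIs among 23979 (3.75 per 10000). Within 25% of the cut lay 18 cells above and 32 below. Among cells that the rule set aside beforehand, 36 of the 100 mature cells and 6 of 657 cells with at least 5% secretory UMIs (median 12953 UMIs) reached the same level.

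Median UMIs per cell were 23770, against 17119.5 in the mature cells and 26135.5 in the rest. Median genes per cell were 4786.5, 3464.5 and 4974.5, and median mitochondrial shares 6.39%, 9.86% and 4.98%. The part of the mitochondrial share in the levels below was not tested, beyond the limit of 10% given with the results it changes. Epcam, the epithelial adhesion molecule, was at 27.6 UMIs per 10000 against 43.4 and 21.4. Of 6 immune markers, 4 (Ptprc, Cd3e, Tyrobp and Cd79a) were at 0 UMIs in all 130 cells, as were 3 of 4 stromal and endothelial markers (Col1a1, Col3a1 and Dcn). The enteroendocrine markers Chga and Neurod1 and the tuft markers Trpm5 and Pou2f3 were also at 0. Among the 130 cells, 118 carried transcripts of at least 1 of 4 Y-linked genes and 0 carried Xist.

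Against the rest, 226 of 5538 genes were at least 2-fold higher in the 130 cells (4.08%) and 93 at least 2-fold lower (1.68%). Without the 10 highest cells, an alternative added after seeing the data, 197 of 5542 were higher (3.55%) and 78 lower (1.41%). With a mitochondrial limit of 10%, under which 98 of the 130 cells were chosen again, 90 were higher and 44 lower, and ranking on Reg3b and Reg3g alone gave 54 and 15. Colonocyte genes led the higher ones outside the rule. Dpep1, a brush border dipeptidase, was at 1.42 UMIs per 10000 against 0.0239 in the rest, 59.5-fold higher (48.8 to 73.0), with a UMI in 89 of the 130 cells. Cyp2c55, a cytochrome P450 of the colon, was at 1.85 against 0.0386, 47.9-fold higher, with a UMI in 51 cells. Krt20 was 35.2-fold higher (3.18 against 0.0904), and the carbonic anhydrase Car1 29.2-fold (8.87 against 0.304). Guca2a, which encodes guanylin, was 12.1-fold higher (6.63 against 0.546). The glycosyltransferase Mgat4c (9.38 against 0.237), the apolipoprotein L gene Apol10a (2.88 against 0.0611) and the steroid dehydrogenase Hsd3b3 (1.35 against 0.0483) were 39.6-fold, 47.2-fold and 28.0-fold higher. Cdx2, an intestinal homeobox factor, was 8.88-fold higher (1.74 against 0.196) with a UMI in 114 cells, while its relative Cdx1 had 3.08 against 3.04. Dmbt1, a secreted scavenger receptor of mucosal defence, was at 15.8 against 2.85 and had a UMI in 129 cells.

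The lower genes included the transthyretin gene Ttr, 7.70-fold lower (0.227 against 1.75), the defensin Defb45 (0.295 against 1.47) and the transferrin gene Trf (0.325 against 1.50). Sval1 was also lower (0.217 against 1.19), with 18.0 in the barcodes of 10 to 100 UMIs. The stress gene Gdf15 was at 0.884 against 2.54 and the immediate-early factor Fosb at 1.20 against 3.91. Of 16 immediate-early and heat shock genes past the level filter, 3 were 2-fold lower (Fosb, Atf3 and Dusp1) and 0 were higher.

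**Figure D1:**
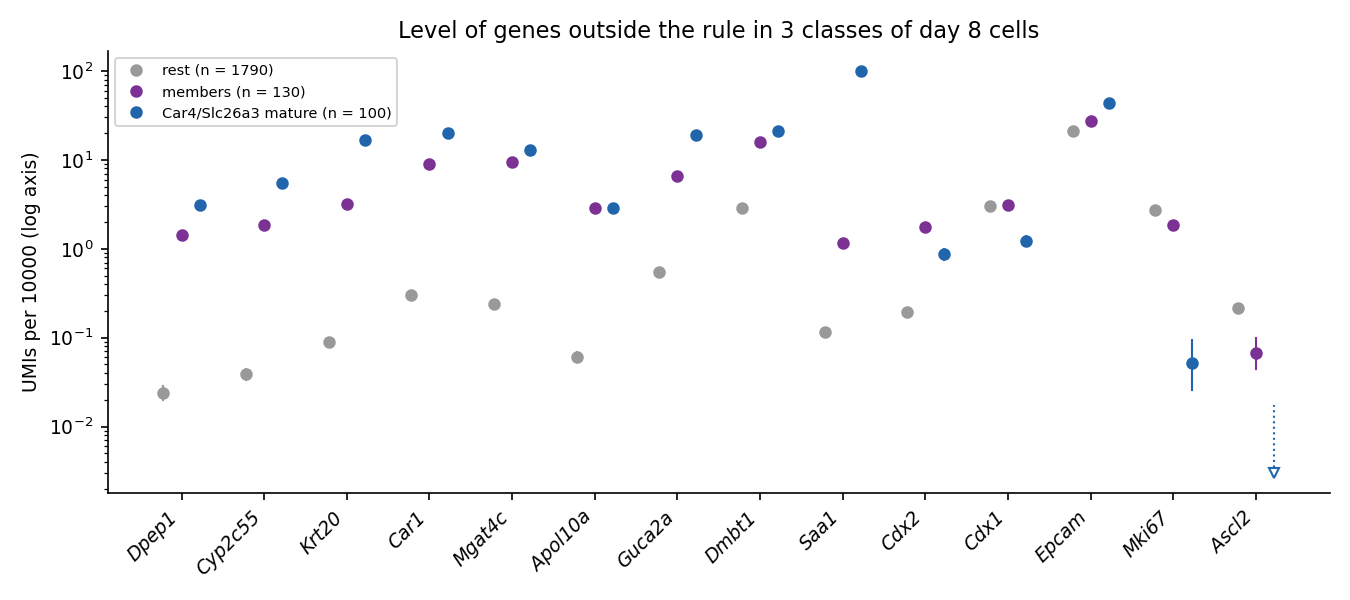
Level of genes outside the rule in UMIs per 10000 (log axis) in the 130 cells (members), the mature cells and the rest, with points for summed levels and bars for 95% exact Poisson intervals (open triangle, no UMI). Dpep1 lies at 1.42 in the 130 cells between 3.13 in the mature cells and 0.0239 in the rest, whereas Cdx2 is highest in the 130 cells.

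The mature cells differed more widely, with 1334 of 5125 genes at least 2-fold higher in the 130 cells (26.0%) and 673 at least 2-fold lower (13.1%). Genes of division were the leading differences upward. Ube2c, a ubiquitin ligase partner of mitotic exit, was at 1.95 against 0.00473 in the mature cells (1 UMI), and the topoisomerase Top2a at 1.73 against 0.0189. The chloride uptake cotransporter Slc12a2 (1.97 against 0.0142) and the pore-forming claudin Cldn2 (1.11 against 0.0189) also led. In the other direction, the peptide transporter Slc15a1 had no UMI in the 130 cells and 1.07 per 10000 in the mature cells, at least 142-fold lower by a floor of 3 UMIs over the class. Ly6g (0.0705 against 8.74), the retinol binding protein gene Rbp2 (0.0302 against 1.26) and the selenium carrier Selenop (0.234 against 6.96) were far lower too. The acute-phase gene Saa1 was at 1.15 against 98.9. Summed over 20 listed genes each, replication genes were at 9.86 UMIs per 10000 against 0.601 in the mature cells and mitosis genes at 13.8 against 0.156. Car4 at 0.350 against 27.4, Aqp8 at 0.0302 against 13.3 and Slc26a3 at 1.57 against 14.2 had been used to set the mature cells apart.

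Of 1010 genes 2-fold higher in the mature cells than in the rest, the 130 cells were between both classes for 932 (92.3%), at a median 35.2% of the log2 distance from the rest. Of 1600 genes 2-fold lower in the mature cells, 1386 were between (86.6%), at a median 12.7% of the distance. These levels are sums over a class that was mixed, as described below, and do not give the distance of single cells.

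By function, the absorptive lists stood higher than the rest. The counts that follow are of genes past the level filter, beside 4.08% higher and 1.68% lower among all genes, whose median log2 ratio was 0.01. Of 12 mature colonocyte genes 9 were 2-fold higher and 0 lower; Slc26a3, 1 of the 9, had been used to set the mature cells apart. Among the others were Ceacam1 (10.8 against 3.13 UMIs per 10000) and Lypd8, a secreted protein that holds off flagellated bacteria (47.6 against 18.8). Of 15 brush border genes 6 were higher and 0 lower, including the bundling protein Espn (1.01 against 0.313) and the protocadherin Cdhr5 (1.37 against 0.391), while villin, Vil1, was at 1.58 against 1.09. Of 13 ion and water transport genes 5 were higher, including the sulfate transporter Slc26a2 (2.13 against 0.624) and the water channel Aqp4 (9.28 against 2.46). Of 9 peptidase and nutrient transport genes 4 were higher, among them the bile acid and steroid exporter subunit Slc51b (0.889 against 0.0560).

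Of 21 genes of drug and steroid metabolism 8 were 2-fold higher and 0 lower. Hsd17b2, which inactivates sex steroids, was at 1.07 against 0.180, and the carboxylesterase Ces2c at 0.408 against 0.0777. Of 12 lipid genes 5 were higher, Fabp2 of the rule among them, and 1 lower. Apob, the structural protein of lipoproteins, was at 0.338 against 0.130, whereas the bile acid binding protein Fabp6 was at 0.156 against 0.438. Fabp1, Apoa4 and Cd36, defining absorptive lipid genes of the small intestine, had no UMI in the 130 cells. Of 9 antimicrobial and acute-phase genes 5 were higher, 2 of which were in the rule. The others included Dmbt1 and the cytokine Il18 (2.25 against 0.674), and Reg4 was lower (0.181 against 1.11), a gene the rule used to set aside secretory cells.

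Of 19 intestinal transcription factors 4 were 2-fold higher and 0 lower. Beside Cdx2 they were Klf4, a factor of differentiating epithelium (5.62 against 2.28), Isx (0.448 against 0.00831) and Nr1h4, the bile acid receptor FXR (0.486 against 0.176), while Hnf4a was at 1.18 against 0.867. Of 5 genes of a Fabp6 and gasdermin list, Gsdmc2, Gsdmc3 and Gsdmc4 (4.64 against 1.40) were higher and Fabp6 lower. Of 8 goblet genes 3 were lower (Tff3, Spink4 and Klk1) and 1 higher (Galnt12), Tff3 and Spink4 being genes used to set secretory cells aside.

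Signalling lists had few genes past 2-fold. Of 8 STAT3 and gp130 genes 1 was 2-fold higher and 0 lower, the fucosyltransferase Fut2 (0.491 against 0.230). Socs3, a feedback target of STAT3, was at 0.272 against 0.191 and Stat3 itself at 0.499 against 0.557. Of 11 interferon genes 1 was higher, Isg15 (0.401 against 0.0849). Of 7 MHC class II genes none was past 2-fold in either direction, with Cd74 at 26.4 against 20.4. Of 12 fetal-like repair genes 1 was higher, Ly6a, which encodes Sca-1 (9.26 against 3.63), and 2 were lower, Krt7 (0.234 against 0.936) and Cyr61 (0.164 against 0.476). Among 22 genes of oxidative phosphorylation all 22 were above the rest, 2 of them past 2-fold, including cytochrome c, Cycs (9.78 against 4.11).

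None of 18 replication genes and none of 18 mitosis genes past the filter was 2-fold apart, yet 20 of 20 listed replication genes and 19 of 20 mitosis genes lay below the rest. Mki67 was at 1.83 UMIs per 10000 against 2.74 in the rest and 0.0520 in the mature cells, and the helicase subunit Mcm2 at 0.275 against 0.463 and 0.0142. Of 12 crypt base stem genes 3 were lower (Smoc2, Lrig1 and Ephb3) and 1 higher (Prom1), and of all 20 listed 14 were below the rest and 5 above. The sorted reporter gene Ascl2 was at 0.0680 against 0.215 and Lgr5, whose cells the toxin targeted, at 0.0277 against 0.0251.

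The label of an early colonocyte held for only some of the 130 cells, which entered the class by different genes. By Reg3b and Reg3g alone and also by Fabp2 alone, 44 cells reached the cut. By Fabp2 alone and not by Reg3, 51 did, by Reg3 and not by Fabp2 30 did, and 5 reached it only by the sum. Median UMIs were 18619.5, 21988 and 33964 in the first 3 of these sets, and median mitochondrial shares 7.58%, 6.49% and 5.28%. The deepest set was therefore that of Reg3 alone.

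**Figure D2:**
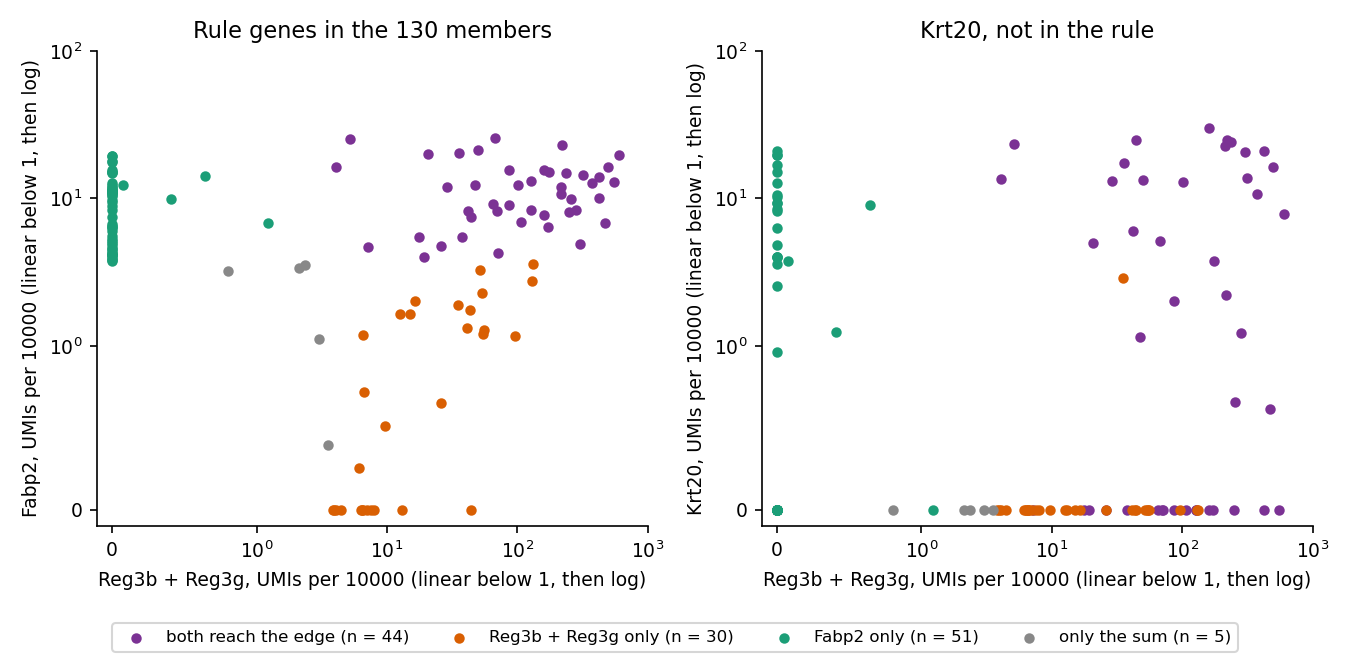
Each point is 1 of the 130 cells, coloured by which genes reach the cut (edge), with the summed Reg3b and Reg3g level on the horizontal axis and Fabp2 (left) or Krt20 (right) on the vertical axis, in UMIs per 10000 on axes that are linear below 1 and then log. The 30 cells that entered by Reg3 alone sit low for Krt20, whereas cells with high Fabp2 are found with and without Reg3.

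Among the chosen cells, both sets with Fabp2 at the cut held more colonocyte transcripts than the set by Reg3 only. Krt20 was at 5.28 UMIs per 10000 in cells that entered by both, 3.91 in those by Fabp2 only and 0.182 in those by Reg3 only, with a UMI in 27 of 44, 23 of 51 and 1 of 30 cells. Car1 was at 11.7, 13.8 and 0.273, Mgat4c at 15.2, 11.7 and 0.792, and Guca2a at 10.5, 8.09 and 0.983. Dpep1 was at 1.95, 1.98 and 0.264 and Cyp2c55 at 3.37, 1.90 and 0.218. Division ran the other way, with Mki67 at 1.39, 1.53 and 2.43 and Top2a at 1.24, 1.11 and 2.78. Krt20 had a UMI in 78 of 1790 cells of the rest. The sets were split on the rule genes, so cells by Reg3 only were low in Fabp2 by construction. The split therefore cannot decide whether Reg3 itself goes with colonocyte transcripts. In the 100 mature cells, which the rule genes had not chosen, Reg3b had a Spearman rho of 0.456 with Krt20. The rho was 0.465 with Dpep1, 0.468 with Guca2a and 0.0848 with Slc26a3.

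Cells with Fabp2 were much alike whether or not they held Reg3. Apart from Reg3b (175 against 0.00710 UMIs per 10000) and Reg3g (42.3 against 0.0426), which made the split, only 17 of 5308 genes were 2-fold higher (0.320%) and 29 lower (0.546%) in the 44 cells than in the 51. Cells by Fabp2 only differed from those by Reg3 only at 379 (6.83%) and 396 (7.13%) of 5551 genes. Against the rest, cells by Reg3 only had 26 of 5561 genes higher (0.468%) and 23 lower (0.414%), cells by Fabp2 only 380 of 5488 higher (6.92%) and 309 lower (5.63%), and cells by both 420 of 5489 (7.65%) and 346 (6.30%). The 30 cells by Reg3 alone were thus near the level of the rest for most genes, though Cdx2 was 3.87-fold higher in them and Dmbt1 2.55-fold. In cells by Fabp2 only, Dpep1 was 82.6-fold above the rest, Apol10a 63.7-fold and the homeobox factor Isx 58.7-fold.

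**Figure D3:**
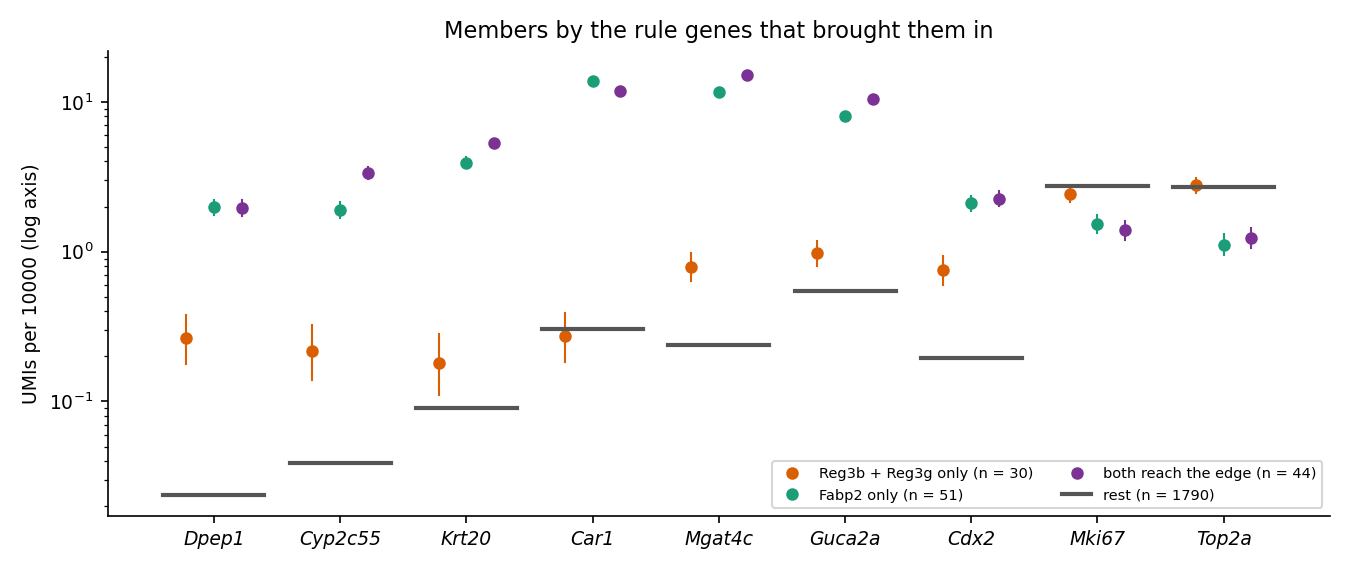
Level in UMIs per 10000 (log axis) of genes outside the rule in the cells that entered by both, by Fabp2 only or by Reg3 only, with points for summed levels and bars for 95% exact Poisson intervals (horizontal lines, the rest). Krt20 falls from 5.28 and 3.91 in the cells with Fabp2 to 0.182 in those by Reg3 only, while Mki67 is highest in the last set at 2.43.

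The 95 cells that reached the cut by Fabp2 were themselves mixed in stage. A Krt20 UMI was found in 50 of them and none in 45. Mki67 was at 0.544 UMIs per 10000 in the 50 and 2.36 in the 45, near the 2.74 of the rest. Car1 (25.5 against 0.443), Guca2a (18.0 against 0.704), Cyp2c55 (5.09 against 0.189) and Dpep1 (3.47 against 0.501) were all higher with Krt20. Other genes did not follow this split. Reg3b was at 99.3 with Krt20 and 69.5 without, Dmbt1 at 19.5 and 20.2 and Cdx2 at 2.23 and 2.13. The Reg3b sums leaned on single cells, with 4668 UMIs in 1 cell with Krt20 and 3741 in 1 cell without. The tight junction gene Cldn15 was lower with Krt20 (0.730 against 2.14).

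Over the 130 cells, Krt20 was found in 51, Mki67 in 73 and both in 13. After each cell was thinned to the minimum number of UMIs the counts were 48, 53 and 6. Among the secretory cells, thinned to the same depth, Krt20 had a UMI in 31 of 657 and Mki67 in 63. Krt20 and Cyp2c55 rose and fell together from cell to cell (Spearman rho 0.89 over 130 cells), and so did Fabp2 and Dpep1 (0.75), whereas Krt20 ran against Mki67 (-0.55). Reg3b had a rho of 0.17 with Krt20 and 0.18 with Fabp2 in the 130 cells, and of 0.46 and 0.53 in the 100 mature cells. These coefficients are descriptions over cells of 1 library, and the 130 cells were chosen on Reg3b, Reg3g and Fabp2.

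A small number of genes stood above or below both other classes, listed after their values were seen. Of 4695 genes measured against both, 12 were 2-fold above both (0.256%) and 11 2-fold below both (0.234%). Those above were led by B4galnt1, a ganglioside synthase, at 0.446 UMIs per 10000 against 0.0568 in the mature cells and 0.0115 in the rest. Aqp4 had 9.28 against 4.04 and 2.46. Cldn15 had 1.43 against 0.0331 and 0.637, the lipase Aadac 0.509 against 0.0852 and 0.150, and the gasdermin gene Gsdmc2 1.76 against 0.724 and 0.335. With a mitochondrial limit of 10%, under which the mature cells and the other classes were chosen anew, Gsdmc2 was lower than in the mature cells (log2 ratio -0.17). Pibf1, Vsig2, Slc25a4, Gsdmc3 and Snx7 were also among the 12. Below both were Sycn (3.79 against 29.9 and 10.7), the posterior homeobox gene Hoxb13 (1.25 against 3.46 and 2.69) and Fabp6 (0.156 against 1.48 and 0.438). The other 8 were Ccl6, Klk1, B3gnt7, Nxpe4, Wfdc18, Edn1, Lrg1 and Hgfac.

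Hoxb13 led to the other Hox genes, homeobox factors known for setting position along the body axis, which were also chosen after their values were seen. Of 16 Hox genes with at least 50 UMIs in the 3 classes, 10 were above the rest and 6 below. The 6 were Hoxb13 and every Hoxd gene measured. Hoxd13 was at 0.106 UMIs per 10000 in the 130 cells, 0.180 in the mature cells and 0.537 in the rest, and Hoxd11 at 0.0806, 0.189 and 0.395. Summed over Hoxd9 to Hoxd13 the level was 0.199 (0.158 to 0.248), against 0.454 in the mature cells, 1.06 in the rest and 0.417 in the secretory cells.

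The low Hoxd level belonged to the cells with Fabp2. Cells that entered by both had 3 Hoxd UMIs in all (0.0229 per 10000), those by Fabp2 only had 6 (0.0426), and the 30 by Reg3 only had 0.619 per 10000 (0.481 to 0.784). Of the 95 cells with Fabp2 at the cut, the 50 with Krt20 held 9 Hoxd UMIs (0.0670) and the 45 without Krt20 held none. For those 45 the floor of 3 UMIs over the set is 0.0218 per 10000, at least 48.7-fold below the rest. Low Hoxd was thus found both in cells with Krt20 and in cells with Mki67 near the level of the rest. After the same thinning a Hoxd UMI was found in 1 of 44, 1 of 51 and 11 of 30 cells (36.7%) by these routes, and in 848 of 1790 cells of the rest (47.4%). Cells of the rest with a Fabp2 UMI, 572 in all, had 0.909 per 10000, and the 1218 without one 1.16. The HoxA cluster did not follow, with Hoxa9 to Hoxa13 summed at 1.31, 1.48 and 1.37 by both, Fabp2 only and Reg3 only, against 1.12 in the rest. For a further value the classes were kept and cells above 10% mitochondrial UMIs were left out. The summed Hoxd level was then 0.0354 in 84 cells with Fabp2 at the cut and 1.07 in the rest.

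**Figure D4:**
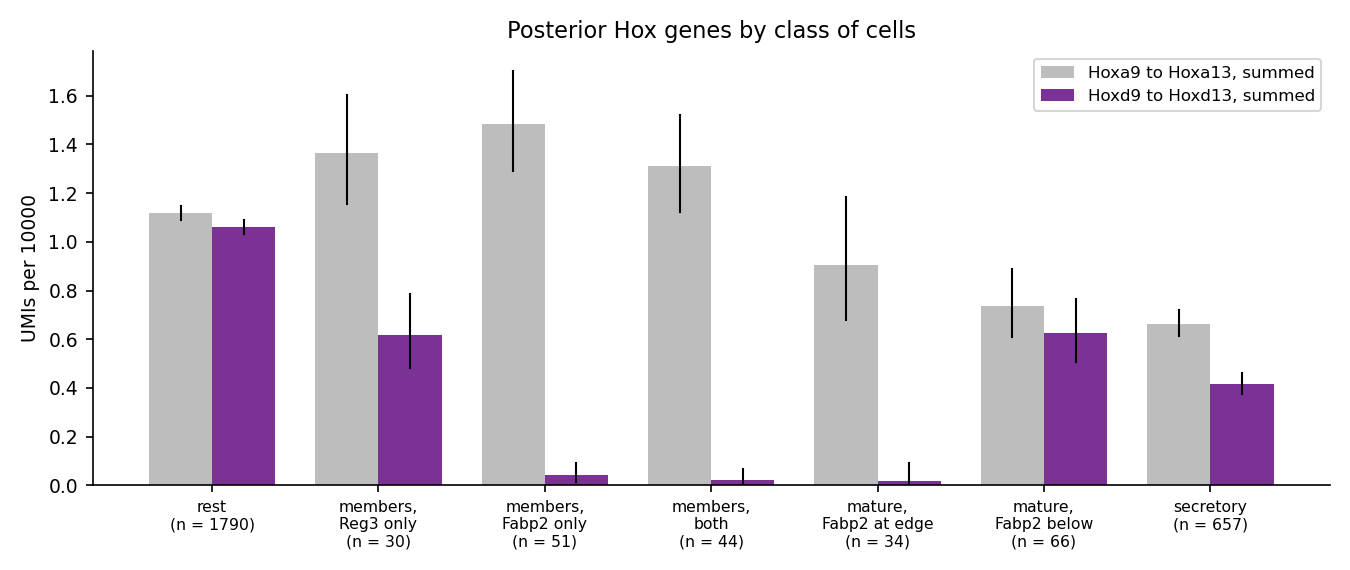
Summed UMIs per 10000 of Hoxd9 to Hoxd13 and of Hoxa9 to Hoxa13 by class of cells, with bars for 95% exact Poisson intervals. The Hoxd sum is near 0 in every class with Fabp2 at the cut, including mature cells (0.0168). It is 0.619 in cells that entered by Reg3 only. The Hoxa sum lies between 0.664 (secretory cells) and 1.48 (cells by Fabp2 only).

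The mature cells, which the 3 rule genes had not chosen, showed the same split. Fabp2 was at or above the cut in 34 of the 100 and below it in 66, with median UMIs of 15192 and 20999.5 and median mitochondrial shares of 8.63% and 10.6%. The summed Hoxd level was 0.0168 per 10000 (1 UMI) in the 34 and 0.626 (0.506 to 0.765) in the 66. Among those with at most 10% mitochondrial UMIs it was 0.0230 in 23 cells and 0.377 in 29. A Hoxd UMI was found after thinning in 0 of 34 cells (95% exact binomial interval up to 10.3%) and in 17 of 66 (25.8%, 15.8 to 38.0%). Under the 10% limit the thinned shares were 0 of 23 (up to 14.8%) and 3 of 29 (10.3%, 2.19 to 27.4%). Those intervals overlapped, so the thinned shares do not separate the sets there. Reg3b was at 98.3 in the 34 and 0.152 in the 66, and Reg3g at 43.3 and 0.204. These are sums over cells of very uneven level. Of the 100 mature cells, 17 reached the cut by Reg3b and Reg3g, 2 of them among the 66. The 3 rule genes summed to 1797 UMIs per 10000 in the highest mature cell and to 0.429 at the median. Dpep1 (7.53 against 1.40), Krt20 (27.5 against 12.4), Cdx2 (1.49 against 0.626) and Isx (0.755 against 0.0593) were higher with Fabp2. Hoxb13 (1.19 against 4.35) and Sycn (6.65 against 39.1) were lower, and Fabp6 had 1 UMI (0.0168) against 2.05.

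Across all genes of that split, 212 of 4442 were 2-fold higher with Fabp2 (4.77%) and 179 lower (4.03%). Of the 12 genes above both classes in the 130 cells, 11 were higher in the mature cells with Fabp2, 4 of them past 2-fold. Of the 11 below both, 10 were lower, 9 of them past 2-fold. Over all genes 53.3% were higher with Fabp2. Both lists had been picked against the sum of these same mature cells, so that share is not a like background for them. The split was made by 1 of the rule's genes in the same library. These counts are thus a description and neither a replicate nor a test.

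The bulk libraries measured the same genes in samples that had not chosen the cells. Reg3b varied more between libraries of 1 group than between groups. It was at 1291, 16.9 and 1257 CPM (counts scaled to the size of the library) in the 3 wild-type libraries, 314 and 1365 in the regenerating ones and 1735 and 82.7 in the knockout ones. The groups overlapped, with 1 wild-type and 1 knockout library far below the others. Reg3g followed, at 540, 19.9 and 309 in wild type, 104 and 383 in regenerating cells and 968 and 56.9 in the knockout. Neither gene passed the test in either adult comparison.

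Fabp2 was at 245, 142 and 499 CPM in wild type, 47.9 and 175 in regenerating cells and 1673 and 851 in the knockout. The knockout libraries lay above all wild-type libraries, and the regenerating ones overlapped them. Dpep1 was at 60.3, 32.1 and 151 in wild type, 4.87 and 35.9 in regenerating cells and 149 and 63.0 in the knockout, with overlap throughout. Cyp2c55 was at 688, 402 and 1959 in wild type, 23.8 and 440 in regenerating cells, which overlapped, and 245 and 260 in the knockout, both below wild type. That knockout difference did not pass the test in the main fit (log2 fold change -2.01, SE 1.03, edgeR adjusted p = 0.163). Over the alternatives the log2 fold change was -2.96 to -1.11. Fewer cells of a type and less RNA per cell cannot be told apart in such bulk samples.

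**Figure D5:**
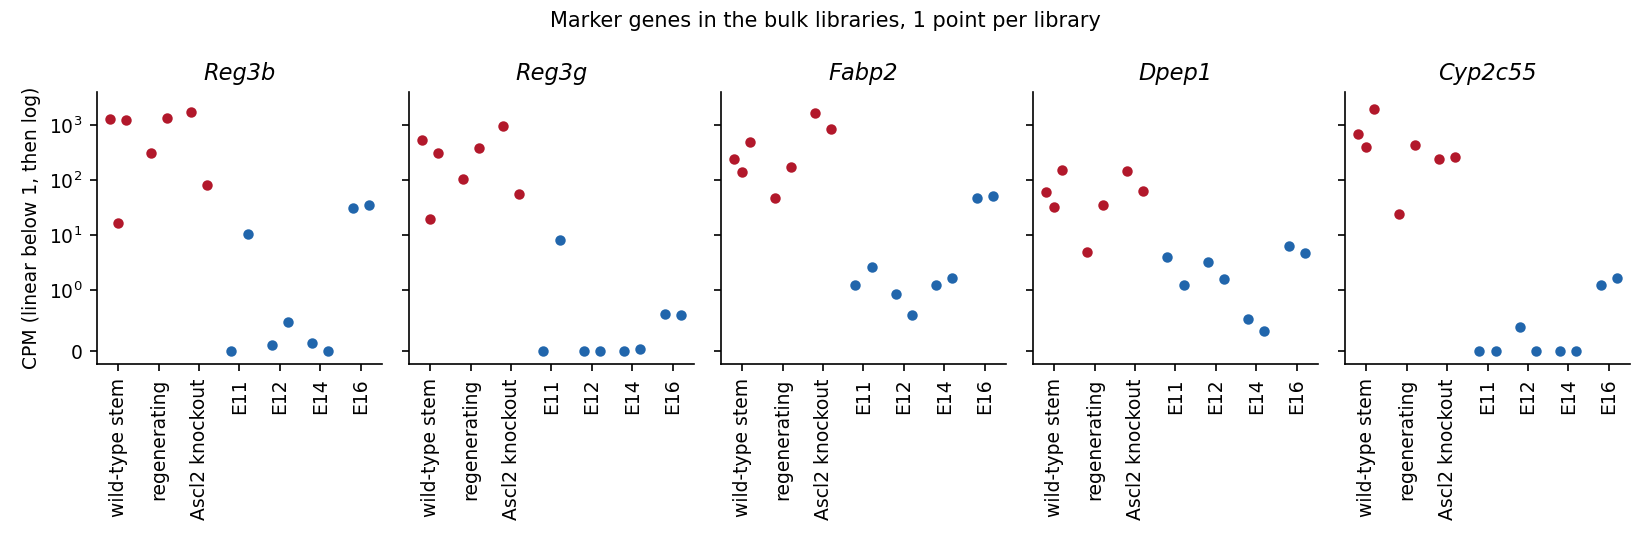
CPM of marker genes in the adult and hindgut bulk libraries, 1 point per library, on axes that are linear below 1 and then log. Reg3b spans 16.9 to 1291 within wild type alone, while Fabp2 in the knockout (851 and 1673) lies above all 3 wild-type libraries.

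None of the 24 tested genes among the 25 highest of the 130 cells was called between regenerating and wild-type libraries (edgeR quasi-likelihood test, adjusted p under 0.05), where 0.302% of 13911 genes were called higher and 0.0288% lower. At an unadjusted p under 0.05 there were 0 higher and 9 lower of the 24, beside 1460 of all 13911 genes in either direction. DESeq2 called 1 of the 24 lower, beside 179 of all genes. The median log2 fold change of the 24 genes was -1.02 and 21 of 24 were below 0, beside a median of 0.01 over all genes. Of the 15 genes lowest in the 130 cells 1 was called higher, Sval1 (log2 fold change 3.87, SE 0.53, edgeR adjusted p = 0.0219), at 326, 139 and 566 CPM in wild type and 4256 and 5777 in regenerating cells.

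In the knockout libraries Ascl2 was at 53.8 and 59.2 CPM against 110, 151 and 104 in wild type (log2 fold change -1.11, SE 0.27, edgeR adjusted p = 0.0115). The counts cover the whole gene, so this is not a measure of the deleted part. The knockout comparison used the same wild-type libraries, and 18.8% of genes were called higher and 17.4% lower. Of the 24 genes, 5 were called higher and 1 lower, with a median log2 fold change of 0.50 beside -0.02 over all genes. Of the 15 genes lowest in the 130 cells, 8 were called higher and 3 lower, with a median of 1.82. Higher among the 24, by log2 fold change, were Guca2a (3.15), the cell cycle inhibitor Cdkn1a (2.76) and the mitochondrial gene Higd1a (2.85). The galectin Lgals3 (2.77) and Pibf1 (1.91) were the other higher ones of the 24. Cdx2 was the lower one, at 20.3 and 6.96 CPM against 68.9, 60.0 and 54.9 (log2 fold change -2.17, edgeR adjusted p = 0.00431). Fabp2, a rule gene, was higher (log2 fold change 2.10, SE 0.61, edgeR adjusted p = 0.0255, 0.000946 to 0.183 over the alternatives). Its call was lost by library size scaling (1.12, adjusted p = 0.149), without knockout library 1 (adjusted p = 0.183), without wild-type library 1 (0.0669) and without wild-type library 2 (0.0539). Library size scaling moved the median of all genes by about -1.0 on the log2 scale and gave 1233 genes higher and 5328 lower, 18.8% of calls higher in place of 52.0%.

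In the embryonic hindgut Fabp2 was at 1.24 and 2.66 CPM at E11 and 47.6 and 52.4 at E16, with no overlap (log2 fold change 4.67, SE 0.46, edgeR adjusted p = 0.000121). Reg3b at E11 was at 0 and 10.5, and the next 2 ages gave 0.109 and 0.488 (E12) and 0.131 and 0 (E14). It reached 31.4 and 35.7 by E16, which did not pass the test against E11 (log2 fold change 2.68, edgeR adjusted p = 0.177, 0.000603 to 0.39 over the alternatives). Without E11 library 2, the one at 10.5, it passed (12.57, adjusted p = 0.000603). Reg3g was at 0 and 8.25 at E11 and 0.616 and 0.602 at E16 (log2 fold change -2.75, edgeR adjusted p = 0.296, 0.0178 to 0.981 over the alternatives). Without E11 library 1 it passed (-3.75, adjusted p = 0.0178), and without E11 library 2 its direction turned (6.80). Dpep1 was at 6.35 and 4.66 at E16, and Cyp2c55 at 1.23 and 1.66, having been at 0 in both E11 libraries. Of 23 tested genes among the 25 highest, 14 were called higher and 3 lower at E16, where 29.6% of 16481 genes were called higher and 26.2% lower. Their median log2 fold change was 3.16 beside 0.05 over all genes, and stayed at 3.16 with the 7 genes at 0 in both E11 libraries set to a floor of 3 counts over the group. Of 13 tested genes among the 15 lowest, 8 were higher and 2 lower, with a median of 1.52, so both lists had more genes higher than lower. Dmbt1 (log2 fold change 7.70, edgeR adjusted p = 0.000943), Krt20 (2.84, adjusted p = 0.000143) and Lgals3 (6.41, adjusted p = 8.07e-06) were among the higher genes.

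Of the 6 low Hox genes, Hoxd13, Hoxd11 and Hoxb13 were followed in bulk, and they did not share a direction. From E11 to E16 Hoxd13 fell from 49.6 and 62.2 CPM to 15.6 and 26.1 (log2 fold change -1.43, SE 0.25, edgeR adjusted p = 0.00197). Hoxd11 fell from 56.8 and 44.8 to 7.39 and 9.63 (-2.58, adjusted p = 7.24e-05). Hoxb13 rose from 23.3 and 3.34 to 73.1 and 78.2 (2.52, edgeR adjusted p = 0.0132), with no overlap.

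In the adult libraries Hoxd13 was at 3.64, 14.6 and 28.7 CPM in wild type, 48.3 and 24.4 in regenerating cells and 24.8 and 20.3 in the knockout, with overlap in both comparisons. Hoxd11 was at 10.1, 6.72 and 8.54 in wild type and 16.03 and 29.3 in the knockout, higher with no overlap (log2 fold change 1.42, edgeR adjusted p = 0.0318, 0.00614 to 0.44 over the alternatives). Hoxb13 was at 576, 473 and 573 in wild type and 802 and 1086 in the knockout (0.80, edgeR adjusted p = 0.0209, 0.00278 to 0.574 over the alternatives). Both were thus higher in the knockout group, in which Fabp2 was also higher, and genotype, reporter allele and sort differ together between these groups. Between the knockout libraries the order was opposite. The one with more Fabp2 (1673 against 851 CPM) had less Hoxd11 and less Hoxb13. By library size scaling both calls were lost, with Hoxd11 at 0.46 and Hoxb13 at -0.17. Without knockout library 2 Hoxd11 had an adjusted p of 0.235 and Hoxb13 of 0.16 by edgeR, and Hoxd11 also lost its call without wild-type library 2 (0.0727) and without wild-type library 3 (0.0702). Neither was called between regenerating and wild-type libraries.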

How the data were processed

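The single-cell values are whole UMI counts per gene and barcode, deposited by the authors as an unfiltered matrix; reads came from a 10x 3' v3 library, and the submitters' processing notes name Cell Ranger 3.0.2 and the mm10 (GRCm38) build. The bulk values are whole read counts per gene, deposited by the authors in tables; the notes name STAR 2.5.3a and HTSeq with no version. Adult libraries were made with a SMARTer kit and hindgut libraries with SMART-Seq v4, per the labels' protocols. The ChIP libraries were not used here.

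Of 1195075 barcodes with at least 1 UMI, 3253 passed the limits. Levels are UMIs summed over a class per 10000, with 95% exact Poisson intervals. Genes needed a mean of 0.2 UMIs per 10000 over both classes, and ratios a pseudocount of 0.5 UMIs. Free RNA was taken from 71722 barcodes of 10 to 100 UMIs. No doublets were removed; Scrublet in scanpy 1.11.5 called 1 of 3253 cells, among the 130, a rate at which the caller cannot be taken to have worked. Cells were thinned to the UMI minimum for shares of cells. The members, the gene lists and the tests were chosen with earlier results of these data known. Genes named singly were the 25 highest and 15 lowest against the rest, the 12 highest and 12 lowest against the mature cells at 1 UMI per 10000 or more, the rule and marker genes, and up to 6 of each of 25 lists; Hox genes and genes above or below both classes were added after their values were seen.

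Bulk counts of 13826958 to 30583908 per library, without 5 rows that name no gene (42.9 to 62.0% of reads), were tested with edgeR 4.0.16 in R 4.3.3 (filterByExpr, TMM, quasi-likelihood F test, Benjamini-Hochberg over all genes, adjusted p under 0.05), in 1 fit of 7 adult and 1 of 8 hindgut libraries. Tested on simulated data, genes changed 4-fold were recovered in 156 of 200 for regenerating, 158 for knockout and 183 for hindgut. The changed genes were past a minimum level and had the fitted trend of spread. Recovery was not measured for genes of wider spread, such as Reg3b (log2 SE 1.45 for regenerating against wild type). Sequences are RefSeq promoter windows, aligned with Biopython 1.88. Alternatives tried were DESeq2 1.42.0, no filter on low counts, library size scaling, a replicate block, each library left out, and other limits, class sizes and rankings of the cells. Values of some genes are not reported here.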

Additional observations from a re-analysis of the deposited data

How the results depend on the processing

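Of 288 alternative log2 ratios for 12 single-cell genes, 1 changed sign from a main ratio at least 2-fold apart. It was that of Gsdmc2 over the mature cells at a mitochondrial limit of 10% (-0.17), where every class was chosen anew. Changes of sign in ratios less than 2-fold apart were not counted. Counts against the mature cells stayed within 1.5 times. Counts against the rest, 226 higher and 93 lower, were 90 and 44 at a mitochondrial limit of 10% (98 of 130 cells shared), 107 and 27 with 260 cells, 54 and 15 ranked on Reg3b and Reg3g (78 shared), 363 and 141 thinned to the UMI minimum (112 shared), and 344 and 257 without the cells that entered by Reg3 alone, a setting chosen after seeing the data; 168 were lower with 65 cells and 183 lower ranked on Fabp2 (102 shared). Without the 10 highest cells, also chosen after seeing the data, they were 197 and 78. The cause was not tested.

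Regenerating against wild type, 42 higher and 4 lower by edgeR, gave 289 and 179 by DESeq2 and 173 and 52 without a filter, each with 1 of the 25 genes lower. Leaving out 1 library gave 1 to 34 higher and 0 to 6 lower, with 0 to 1 of the 25 lower, log2 fold changes of -1.49 to 0.68 for Reg3b and -1.52 to 0.57 for Reg3g; only 1 gene was called higher without regenerating library 2 or wild-type library 1. Knockout against wild type by library size gave 1233 and 5328 with 3 of the 25 lower, and log2 fold changes of -0.91 for Reg3b, -0.18 for Reg3g, -0.59 for Dpep1, -0.45 for Hoxd13 and -0.17 for Hoxb13; without a filter 2 of the 25 were lower. Leaving out 1 library gave 1834 to 2425 higher and 1579 to 2274 lower, 5 to 8 and 1 to 2 of the 25, -3.38 to 1.02 for Reg3b, -2.36 to 1.74 for Reg3g and -0.38 to 1.20 for Dpep1; without knockout library 1 Reg3b was at -3.38. Hindgut gave 3342 to 4963 higher and 3043 to 4246 lower, 10 to 14 and 2 to 4 of the 25, -3.75 to 6.80 for Reg3g and 1.68 to 12.57 for Reg3b. An arm left with 1 library is assumed to vary like the others. The cause was not tested.

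Same-numbered libraries did not pair (correlations of deviations 0.00964 to 0.107 in adult and -0.0295 to 0.0425 in hindgut libraries). With the replicate block, regenerating against wild type had 7 genes lower and log2 fold changes of 3.53 for Reg3b and 2.13 for Reg3g, and 8 of the 25 genes were higher in the knockout, where Hoxd11 had an adjusted p of 0.0835 by edgeR. Depth limits the single-cell values most for genes at 0 to 3 UMIs in a class.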
